A study of Rattus norvegicus with 4 samples.

Results

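Adhesion and orphan G protein-coupled receptors were measured in S16 cells, a rat Schwann cell line, by sequencing of polyadenylated RNA. One group of 2 libraries came from cells transfected with siRNAs against Nr2f1 and Nr2f2, and the other group of 2 libraries from cells transfected with a control siRNA (IDT DS NC1). All cells were of this line and received siRNA with the same lipid reagent (Mirus Transit X2), and the labels give 1 siRNA against each gene. The receptors are the protein-coding genes of the deposited count table whose symbol starts with Adgr, a subfamily letter and a digit, or with Gpr and a number. This rule found 96 of the 32545 genes in the table, 24 adhesion receptors and 72 genes with a Gpr number, called orphan receptors here.

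Adhesion receptors join a long extracellular region, which contacts matrix or other cells, to a transmembrane domain that signals through G proteins. Most cut themselves at an autoproteolysis domain, and the stretch beyond the cut acts as a tethered agonist. In Schwann cells the best known is Adgrg6 (Gpr126), which raises cAMP and is required for myelination in zebrafish and mouse. Gpr numbers were given to receptors with no known ligand at the time. Several have since gained ligands, and some encode membrane proteins of the Golgi or the lysosome. Nr2f1 and Nr2f2 encode COUP-TFI and COUP-TFII, nuclear receptors that bind DNA at pairs of the half-site AGGTCA.

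The promoters of receptors that changed are shown because COUP-TFs bind this half-site. They are RefSeq sequences of build GRCr8, from 250 bases before to 50 bases after the gene start. Entries were matched by symbol for 71 of the 96 receptors and for 4 of the 7 that passed the test described below. Capitals mark AGGTCA or its reverse complement TGACCT.
Adgra3, chr14:65085168-65085467, plus strand: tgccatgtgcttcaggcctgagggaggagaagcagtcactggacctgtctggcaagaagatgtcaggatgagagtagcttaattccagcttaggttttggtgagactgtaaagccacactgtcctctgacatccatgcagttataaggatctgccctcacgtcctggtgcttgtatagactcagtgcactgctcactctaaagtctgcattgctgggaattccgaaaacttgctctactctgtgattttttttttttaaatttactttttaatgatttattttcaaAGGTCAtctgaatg
Adgre5, chr19:41303388-41303687, plus strand: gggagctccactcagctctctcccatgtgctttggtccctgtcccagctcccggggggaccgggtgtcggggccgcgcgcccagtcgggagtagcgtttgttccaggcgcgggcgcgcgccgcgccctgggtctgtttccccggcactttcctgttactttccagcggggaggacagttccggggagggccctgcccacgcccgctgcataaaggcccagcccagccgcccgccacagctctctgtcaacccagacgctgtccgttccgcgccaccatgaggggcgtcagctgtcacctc
Adgrg6, chr1:10773826-10774125, minus strand: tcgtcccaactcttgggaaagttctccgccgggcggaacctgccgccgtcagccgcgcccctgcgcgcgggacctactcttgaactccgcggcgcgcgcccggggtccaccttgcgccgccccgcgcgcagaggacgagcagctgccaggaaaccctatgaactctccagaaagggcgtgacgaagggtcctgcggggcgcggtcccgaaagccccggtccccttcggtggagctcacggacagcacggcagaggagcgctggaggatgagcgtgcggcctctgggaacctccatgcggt
Gpr17, chr18:23857332-23857631, minus strand: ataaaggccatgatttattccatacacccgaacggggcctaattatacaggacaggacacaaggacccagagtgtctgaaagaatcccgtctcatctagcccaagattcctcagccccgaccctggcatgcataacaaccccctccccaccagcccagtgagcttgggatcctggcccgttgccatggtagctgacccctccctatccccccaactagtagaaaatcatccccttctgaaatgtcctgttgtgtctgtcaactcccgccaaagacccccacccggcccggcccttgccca
Among these 4, the half-site stood in the Adgra3 promoter, 36 bases after the start, and in no other. Searched on both strands, it was in 15.7% of the 27457 promoters of the table. It was in 3 of 18 adhesion receptor promoters and in 5 of 53 orphan receptor promoters. The direct repeat of this half-site with 1 base of any kind between the copies was in 0.0583% of all promoters and in 0 of these 71. A match describes the letters of this window and is no evidence of binding. Adgra2, Adgrl1 and Adgrl3 also passed the test and are named without a sequence.

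Both targeted genes were lower in the siRNA libraries. In CPM, counts relative to the scaled total of a library, Nr2f1 was at 61.5 and 56.0 CPM in libraries A and B of the Nr2f1/Nr2f2 siRNA group, against 225.5 and 208.2 CPM in libraries A and B of the control siRNA group. Nr2f2 was at 68.1 and 72.7 CPM in the siRNA libraries, against 295.7 and 281.9 CPM in the control libraries. Libraries are lettered in the order of the deposited columns, and the letters do not pair them. Total counts ranged from 21556011 to 43057750, with siRNA library B the deepest. No label ties a library to a culture of its own, so the spread behind each p-value is that between these 4 libraries and may be technical. The Schwann cell marker Sox10 was at 760.0 and 686.4 CPM in the siRNA libraries, against 689.8 and 713.4 CPM in the control libraries. The macrophage markers Ptprc and Adgre1, the endothelial markers Cdh5 and Kdr and the fibroblast markers Dcn and Lum had 0 counts in every library. Other macrophage and fibroblast markers were present. The macrophage markers Cd68 and Csf1r had 95 and 96 counts in all libraries together. The macrophage list summed to 1.65 and 1.64 CPM in the siRNA libraries, against 1.55 and 1.83 CPM in the control libraries. The fibroblast marker Pdgfra was at 3.22 and 3.15 CPM in the siRNA libraries, against 1.39 and 2.11 CPM in the control libraries, without overlap (log2 fold change 0.88, SE 0.29, adjusted p = 0.0505). The fibroblast marker Col1a1 was abundant, at 11640.8 and 11583.6 CPM in the siRNA libraries, against 12015.1 and 11540.0 CPM in the control libraries. The part of other cell types in the receptor results was not tested.

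Adhesion receptors changed in both directions, and a single orphan receptor passed the test. Adgrl1, Adgre5 and Adgrg6 fell, in every alternative analysis tried. Adgra2, Adgra3 and Adgrl3 rose with all libraries, but only 1 of the 3 passed in each fit without 1 library. Gpr17, which holds back maturation of oligodendrocyte precursors in mouse, rose 3.22-fold. In bulk libraries such as these, fewer expressing cells and less RNA per cell cannot be told apart. Of the 24 adhesion receptors, 12 had enough counts to be tested, and of these 3 were higher and 3 lower with edgeR's quasi-likelihood test at an adjusted p below 0.05 (Benjamini-Hochberg over all tested genes). Of the 72 orphan receptors, 20 were tested, with 1 higher and 0 lower by this test. Among all 13018 genes tested, 18.1% passed, 8.05% higher and 10.0% lower. Of all calls 44.6% were thus higher, against 57.8% with scaling by library size alone. These shares stand beside 6 of 12 tested adhesion receptors and 1 of 20 tested orphan receptors. For the orphan receptors, 6 were higher and 2 lower at an unadjusted p below 0.05, against 15.2% higher and 16.2% lower among all tested genes. The count of orphan receptors called higher was 1 with DESeq2, 3 with scaling by library size, 3 with upper-quartile scaling and 2 with loess offsets, and the count called lower was 0 with DESeq2. The median log2 fold change was 0.24 over the tested adhesion receptors and 0.15 over the tested orphan receptors, against 0.01 over all tested genes. No receptor passed the count filter through one group alone.

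The share of genes that passed also moved with abundance. Of tested genes above 100 CPM 27.3% passed, and of those from 10 to 100 CPM 20.4%. The share was 11.5% from 1 to 10 CPM and 4.53% up to 1 CPM. The median log2 fold change of tested genes moved with abundance as well. It was 0.18 up to 1 CPM, 0.12 from 1 to 10 CPM and -0.06 above 100 CPM. The bin above 100 CPM held 4 adhesion receptors and 1 orphan receptor. The bin from 10 to 100 CPM held 3 adhesion and 9 orphan receptors, and the bin from 1 to 10 CPM 2 and 9. Up to 1 CPM there were 3 adhesion receptors and 1 orphan receptor. From 10 to 100 CPM the 3 adhesion receptors, Adgra3, Adgre5 and Adgrl1, all passed, and the 9 orphan receptors did not. The part of abundance in the difference between the families, and in their median log2 fold changes, was not tested.

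**Figure D1:**
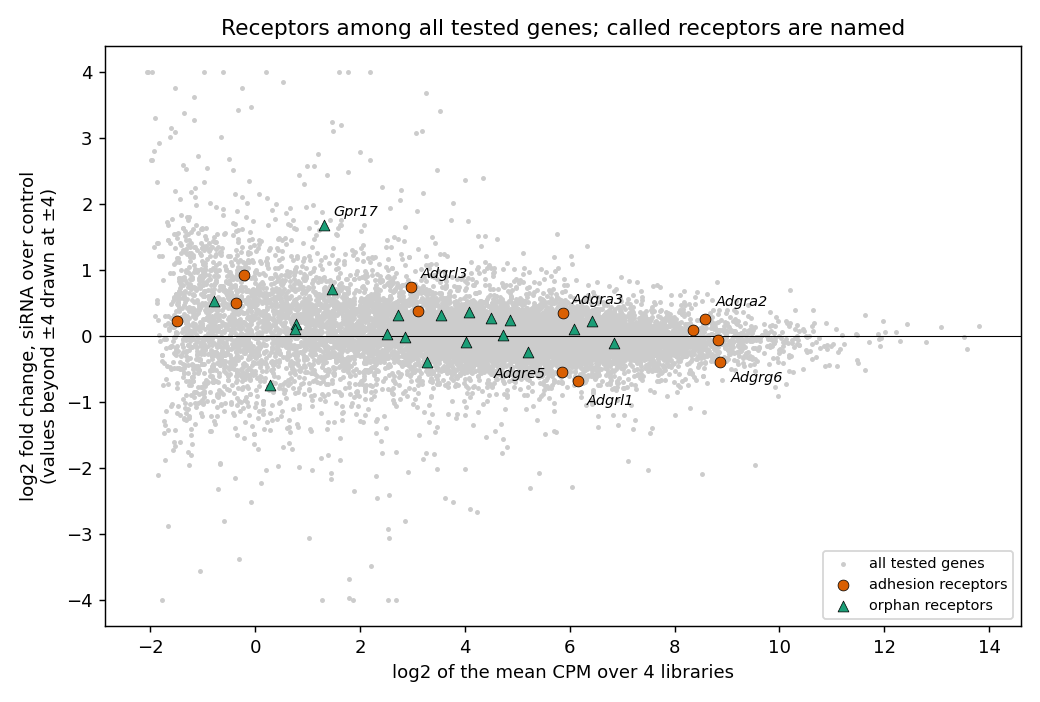
Log2 fold change (Nr2f1/Nr2f2 siRNA over control siRNA) of each tested gene against the log2 of its mean CPM over the 4 libraries, with all tested genes in grey, adhesion receptors as circles and orphan receptors as triangles; changes beyond ±4 are drawn at ±4. The receptors that passed are named; Gpr17 lies at 1.69, and the other 6 lie between -0.69 and 0.75.

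Levels between receptors are compared as RPKM, which divides CPM by the deposited gene length in kilobases. Adhesion receptor RNA was concentrated in 4 genes, Adgrg1, Adgra2, Adgrg6 and Adgrl2. Together they held 88.0% and 88.3% of the summed adhesion receptor RPKM in siRNA libraries A and B, and 86.8% and 86.1% in control libraries A and B. The summed level was 383.3 and 385.5 RPKM in the siRNA libraries and 406.9 and 383.7 RPKM in the control libraries, and these ranges overlapped. Within the sum, the share of Adgrg6 was 15.0% and 15.9% in the siRNA libraries, against 19.6% and 19.7% in the control libraries. The share of Adgra2 was 28.5% and 25.6% in the siRNA libraries, against 21.9% and 22.0% in the control libraries. Shares of one sum are not independent of each other. The deposited lengths bear on levels between genes and not on fold changes.

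**Figure D2:**
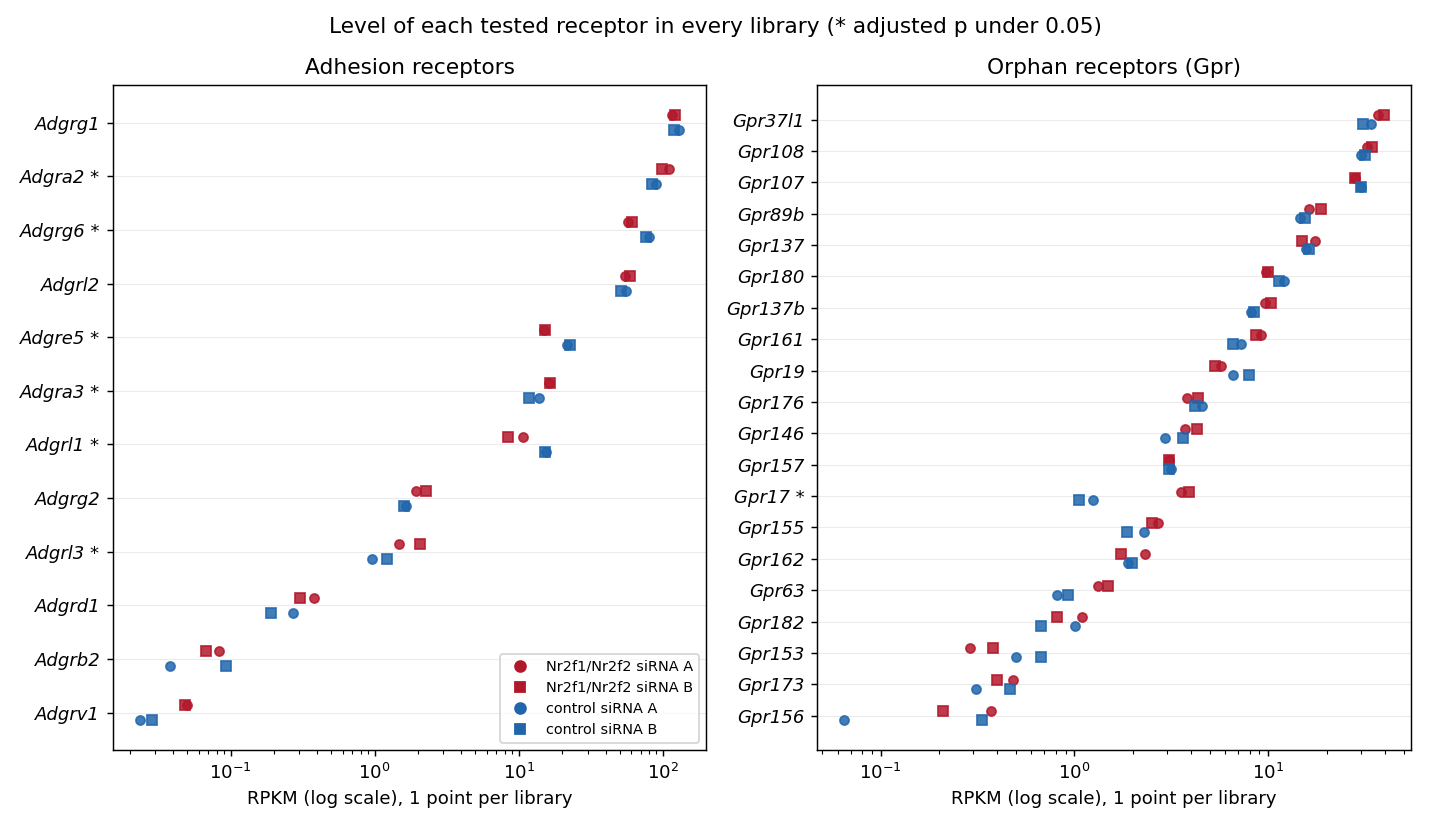
RPKM (log axis) of each tested adhesion receptor (left) and orphan receptor (right) in every library, with Nr2f1/Nr2f2 siRNA libraries in red and control siRNA libraries in blue, circles for library A and squares for library B, and an asterisk where the adjusted p was below 0.05. Red and blue points of Gpr17, Adgrl1, Adgre5 and Adgrg6 are apart, as are those of several other receptors. Adgrg1 and Gpr37l1 head their families.

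The adhesion receptors that fell have different known ligands. Adgrl1, a latrophilin that binds teneurins and FLRT proteins (chr19:25029037-25069142, plus strand; all gene positions are those of the deposited table, for which no source used here names the build), was at 10.7 and 8.47 RPKM in the siRNA libraries, against 15.4 and 15.3 RPKM in the control libraries. Both siRNA libraries lay below both control libraries, with siRNA library B the lowest. Its mean was 54.6 ± 9.01 CPM in the siRNA group and 87.5 ± 0.216 CPM in the control group (SD, n = 2 each), which is -0.69 as log2 fold change (SE 0.11, adjusted p = 0.00107). Adgre5, the CD55-binding receptor CD97 (chr19:24855299-24875137, minus strand), was at 15.0 and 15.3 RPKM in the siRNA libraries, against 21.6 and 22.7 RPKM in the control libraries. The groups did not overlap, and each group was tight. The log2 fold change of Adgre5 was -0.55 (SE 0.09, adjusted p = 0.00103).

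Adgrg6, the myelination receptor (chr1:8593075-8751198, minus strand), was at 57.4 and 61.2 RPKM in the siRNA libraries, against 79.6 and 75.7 RPKM in the control libraries. The siRNA libraries were the 2 lowest, and the group level was 76.3% of that in control cells. The log2 fold change was -0.39 (SE 0.07, adjusted p = 0.00291), on counts of 10259 or more in each library. These 3 falls passed in each of 15 alternative analyses, with log2 fold changes from -0.86 to -0.52 for Adgrl1, from -0.59 to -0.50 for Adgre5 and from -0.44 to -0.32 for Adgrg6.

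The adhesion receptors that rose did so by less than 2-fold. Adgra2 (Gpr124), a coreceptor for Wnt7 signals that works with Reck (chr16:69095936-69132584, minus strand), was at 109.3 and 98.7 RPKM in the siRNA libraries, against 89.1 and 84.5 RPKM in the control libraries. The siRNA libraries were both above the control libraries, and the gap between the groups was about the size of the gap between the siRNA libraries. Its log2 fold change was 0.26 (SE 0.08, adjusted p = 0.0333). Adgra3 (Gpr125), of the same subfamily (chr14:64686793-64786497, plus strand), was at 16.1 and 16.4 RPKM in the siRNA libraries, against 13.7 and 11.8 RPKM in the control libraries. Here the siRNA libraries lay close together and the control libraries apart, without overlap. The log2 fold change of Adgra3 was 0.35 (SE 0.10, adjusted p = 0.0229).

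Adgrl3, a latrophilin like Adgrl1 (chr14:28393394-28967980, minus strand), was at 1.48 and 2.06 RPKM in the siRNA libraries, against 0.957 and 1.21 RPKM in the control libraries. It rested on counts of 214 and 499 in the siRNA libraries and 137 and 143 in the control libraries, and the groups did not overlap. Its log2 fold change was 0.75 (SE 0.20, adjusted p = 0.0227). Each of the 3 rises lost its call in some fits without 1 library. Without siRNA library A, Adgra2 had an adjusted p of 0.291 and Adgra3 of 0.0586. Without siRNA library B, the adjusted p was 0.103 for Adgra3 and 0.277 for Adgrl3. Without control library A, it was 0.0522 for Adgra2 and 0.165 for Adgrl3, and without control library B, 0.144 for Adgra2 and 0.182 for Adgra3. In each of these fits 1 adhesion receptor was still called higher, against 3 with all libraries. With DESeq2, Adgrl3 had an adjusted p of 0.0548.

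**Figure D3:**
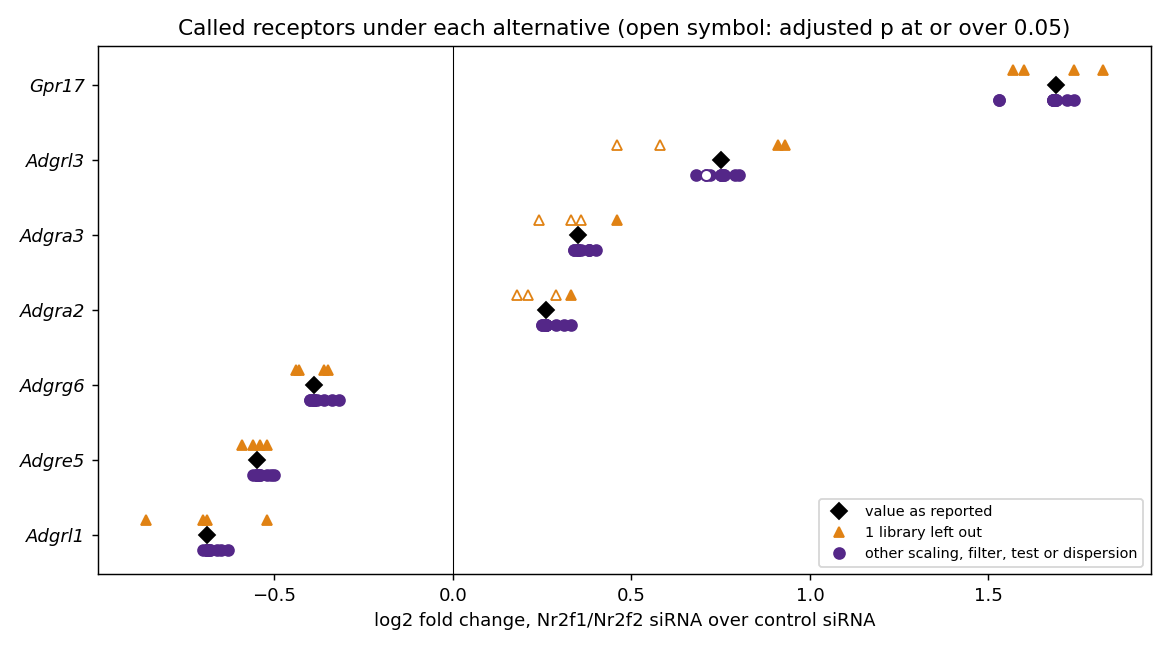
Log2 fold change (Nr2f1/Nr2f2 siRNA over control siRNA) of the 7 receptors that passed, as reported (diamonds), with 1 library left out (triangles) and under another scaling, filter, test, depth or dispersion (circles); open symbols mark an adjusted p at or over 0.05. Symbols of Adgrl1, Adgre5, Adgrg6 and Gpr17 are all filled, and open ones are seen for Adgra2, Adgra3 and Adgrl3.

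The most abundant adhesion receptor did not pass. Adgrg1 (Gpr56), a receptor of collagen III, was at 116.0 and 121.5 RPKM in the siRNA libraries and 129.4 and 119.1 RPKM in the control libraries. The groups overlapped, and the log2 fold change was -0.07 (SE 0.07, adjusted p = 0.594). Adgrl2, the third latrophilin measured, was at 54.8 and 59.0 RPKM in the siRNA libraries and 55.1 and 51.2 RPKM in the control libraries, also overlapping (log2 fold change 0.10, SE 0.08, adjusted p = 0.409). The 3 latrophilins thus had log2 fold changes of -0.69 for Adgrl1, 0.10 for Adgrl2 and 0.75 for Adgrl3. The remaining adhesion receptors tested did not pass either. Adgrg2 had a log2 fold change of 0.39 (SE 0.16) and Adgrv1, the Usher syndrome receptor, of 0.93 (SE 0.43), while Adgrd1 and Adgrb2 had SEs of 0.46 and 0.68. Adgrv1 rested on 107 counts, Adgrd1 on 93 and Adgrb2 on 41 in all libraries together. Both siRNA libraries lay above both control libraries in 6 of the 12 tested adhesion receptors and below them in 3, against 30.1% above and 28.5% below, 58.6% in all, among all tested genes.

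By mean RPKM, Adgrg1 headed the adhesion receptors, followed by Adgra2, Adgrg6, Adgrl2, Adgre5, Adgra3 and Adgrl1. The ranges over the 4 libraries overlapped for Adgrg6 and Adgrl2, for Adgre5 and Adgra3, and for Adgra3 and Adgrl1, and the other neighbours in this order were apart. Below Adgrl1 the levels dropped to 1.86 RPKM for Adgrg2 and 1.43 RPKM for Adgrl3, and Adgrd1, Adgrb2 and Adgrv1 were under 0.3 RPKM.

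Gpr17 was the only orphan receptor to pass. It was at 3.53 and 3.90 RPKM in siRNA libraries A and B, against 1.25 and 1.06 RPKM in control libraries A and B. The counts were 94 and 174 in the siRNA libraries and 33 and 23 in the control libraries. Both siRNA libraries were far above both control libraries. The mean was 3.79 ± 0.263 CPM in the siRNA group and 1.18 ± 0.139 CPM in the control group (SD, n = 2 each), giving 1.69 as log2 fold change (SE 0.29, adjusted p = 0.00177). It passed in all 15 alternatives, with log2 fold changes from 1.53 to 1.82. Its level was low, thirteenth of 20 tested orphan receptors. The gene model, 1020 bases on the minus strand (chr18:24734330-24735349), lies within Lims2 on the plus strand. Lims2, which encodes a focal adhesion protein, was at 23.7 and 24.6 CPM in the siRNA libraries, against 15.5 and 18.5 CPM in the control libraries, or 0.51 as log2 fold change (SE 0.12, adjusted p = 0.0116). No source used here says whether counting used strand, and the part of Lims2 reads in the Gpr17 counts was not tested. Of oligodendrocyte lineage markers, Olig1 had 0 counts in every library, Olig2 was at 1.26 and 1.19 CPM in the siRNA libraries, against 0.966 and 2.58 CPM in the control libraries, and neither Olig2 nor Mog passed. The 3 markers of that lineage summed to 42.4 and 43.2 CPM in the siRNA libraries, against 37.4 and 34.9 CPM in the control libraries, almost all of it Mog, and their part in the Gpr17 result was not tested.

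The abundant orphan receptors stayed within small differences that did not pass. Gpr37l1, a glial receptor for which prosaposin peptides have been proposed as ligands, was the most abundant at 36.8 and 39.3 RPKM in the siRNA libraries, against 34.0 and 30.7 RPKM in the control libraries. The groups did not overlap, but the log2 fold change of 0.23 (SE 0.09) had an adjusted p of 0.0839. With scaling by library size alone the adjusted p was 0.0333, with upper-quartile scaling 0.0469 and with loess offsets 0.0435. Gpr108 was at 32.4 and 34.2 RPKM in the siRNA libraries and 30.1 and 31.7 RPKM in the control libraries. Gpr107, a Golgi protein of the same family as Gpr108, was at 28.0 and 28.0 RPKM in the siRNA libraries and 30.2 and 29.9 RPKM in the control libraries. Their log2 fold changes were 0.11 (SE 0.09) and -0.10 (SE 0.08), each with an adjusted p of 0.41.

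Gpr89b, a Golgi anion channel, was at 16.2 and 18.8 RPKM in the siRNA libraries and 14.5 and 15.4 RPKM in the control libraries (log2 fold change 0.24, SE 0.11, adjusted p = 0.159). Gpr137 was at 17.4 and 15.0 RPKM in the siRNA libraries and 15.7 and 16.2 RPKM in the control libraries, with a log2 fold change of 0.01 (SE 0.11). Gpr180 was at 9.74 and 9.99 RPKM in the siRNA libraries and 12.1 and 11.3 RPKM in the control libraries (log2 fold change -0.24, SE 0.10, adjusted p = 0.102). The siRNA libraries were thus above the control libraries for Gpr89b, below them for Gpr180 and on both sides of them for Gpr137. The levels of Gpr37l1 and Gpr108 overlapped over the 4 libraries, as did those of Gpr108 and Gpr107 and those of Gpr89b and Gpr137.

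The other 13 tested orphan receptors had log2 fold changes from -0.74 for Gpr153 (SE 0.38) to 0.71 for Gpr63 (SE 0.26), none of which passed. The smallest adjusted p among them was 0.0618, for Gpr161, a ciliary receptor that restrains hedgehog signalling. It was at 9.18 and 8.63 RPKM in the siRNA libraries, against 7.23 and 6.57 RPKM in the control libraries, without overlap. Gpr161 passed with library size and upper-quartile scaling. Both siRNA libraries lay above both control libraries in 9 of the 20 tested orphan receptors and below them in 5, against 30.1% above and 28.5% below among all tested genes. Summed over all orphan receptors, the level was 189.4 and 193.4 RPKM in the siRNA libraries and 178.1 and 178.3 RPKM in the control libraries.

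**Figure D4:**
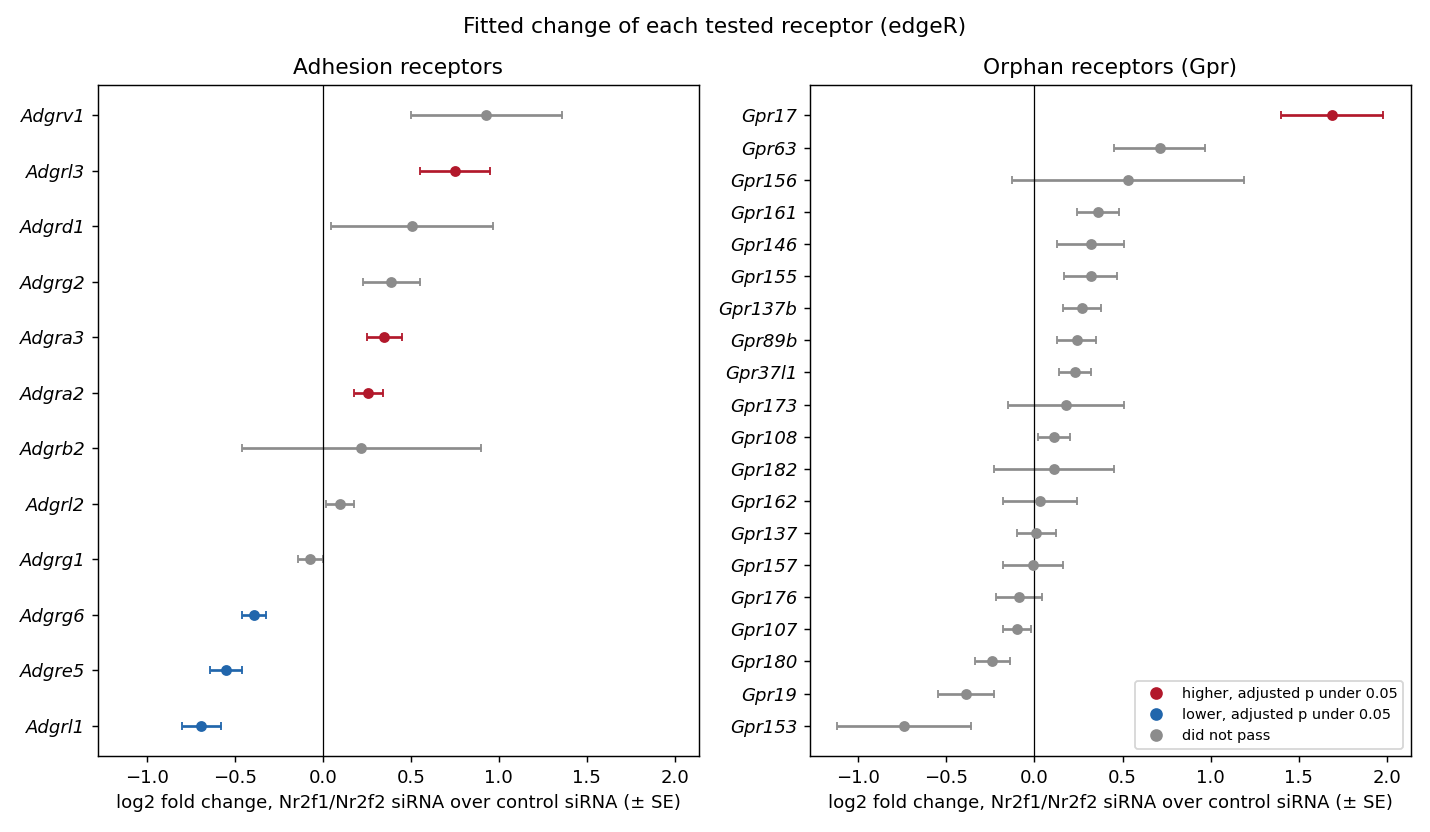
Log2 fold change (Nr2f1/Nr2f2 siRNA over control siRNA) of each tested adhesion receptor (left) and orphan receptor (right) with its SE as a bar, in red where higher and blue where lower at an adjusted p below 0.05, and grey otherwise. Among adhesion receptors 3 are red and 3 blue; among orphan receptors Gpr17, at 1.69, is the one coloured point.

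Most receptors were scarcely present. Of the 12 adhesion receptors not tested, 4 had 0 counts in every library, 5 had 1 to 9 counts in total and 3 had more. Of the 52 orphan receptors not tested, 28 had 0 counts, 17 had 1 to 9 and 7 had more. A level of 3 counts corresponds to 0.115 and 0.0685 CPM in siRNA libraries A and B and to 0.116 and 0.141 CPM in control libraries A and B, so receptors below it were not detectable at this depth. Adgrf5, which controls lung surfactant, had 5 and 7 counts in the siRNA libraries and 0 in both control libraries. With 3 counts set for the control group the ratio was 2.7, and no interval was computed for it. Gpr3, which raises cAMP without a ligand, had 2 and 5 counts in the siRNA libraries and 8 and 10 in the control libraries, a ratio of 0.263 with a Clopper-Pearson 95% interval from 0.0927 to 0.659. Adgrb3, a receptor of C1q-like proteins, had 8 and 9 counts in the siRNA libraries and 5 and 1 in the control libraries, a ratio of 1.91 with an interval from 0.72 to 5.93. These intervals cover counting error only, and the intervals of the other 7 receptors with 10 or more counts included 1.

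Receptors that neighbour each other differed in level. On chromosome 19, Adgrg1 with 53433 counts in all libraries lay between Adgrg3, 2491 bases away with 34 counts, and Adgrg5, 34843 bases away with 2 counts. By the deposited positions, Adgre5 and Adgrl1, which both fell, lie 153900 bases apart on the same chromosome, on opposite strands. The GRCr8 promoter entry above has Adgre5 on the plus strand instead, and the cause of this difference was not tested. By the domain names in the deposited table, all 24 adhesion receptors carried the domain 7tm_2. Of the orphan receptors 57 carried the domain 7tm_1, of which 11 were tested and Gpr17 passed, and 11 carried no domain name, of which 7 were tested and 0 passed.

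The authors' deposited table was compared receptor by receptor. In the authors' deposited table, 5 adhesion receptors and 1 orphan receptor had an adjusted p below 0.05, the same genes as above without Adgrl3. The authors' deposited table gives Adgrl1 a log2 fold change of -0.69 (adjusted p = 6.74e-07), Adgrg6 -0.40 (5.97e-06), Adgre5 -0.56 (9.02e-06) and Gpr17 1.68 (0.00207). For Adgrl3 the authors' deposited table lists 0.71 with an adjusted p of 0.0536.

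Of 21 tested ligands and partners of adhesion receptors, 4 rose and 3 fell, against 8.05% higher and 10.0% lower among all tested genes. Their median log2 fold change was -0.08, and the list is described here by its genes, without a test of the list. Reck, the partner of Adgra2, was at 384.8 and 419.2 CPM in the siRNA libraries, against 271.8 and 258.8 CPM in the control libraries (log2 fold change 0.60, SE 0.08, adjusted p = 0.00022). The Wnt ligands of that pair, Wnt7a and Wnt7b, had 5 and 3 counts in all libraries together. Prnp, the prion protein, whose flexible tail activates Adgrg6 in mouse, was at 1820.9 and 1803.4 CPM in the siRNA libraries, against 1314.9 and 1443.7 CPM in the control libraries (log2 fold change 0.39, SE 0.07, adjusted p = 0.00252). Itgav, an integrin subunit, rose as well (log2 fold change 0.43, SE 0.07, adjusted p = 0.0014). C1ql3, a ligand of Adgrb3, rose too, at 6.17 and 6.19 CPM in the siRNA libraries against 3.32 and 2.02 CPM in the control libraries (log2 fold change 1.18, SE 0.24, adjusted p = 0.00512). The 3 genes that fell are named after their values were seen. Col4a1, a collagen IV chain and ligand of Adgrg6, was at 2682.1 and 2309.1 CPM in the siRNA libraries, against 3295.9 and 3130.2 CPM in the control libraries (log2 fold change -0.36, SE 0.08, adjusted p = 0.00775). The log2 fold change of Dlg4, a scaffold protein, was -0.40 (SE 0.09, adjusted p = 0.00969) and that of Dag1, dystroglycan, -0.21 (SE 0.07, adjusted p = 0.0443).

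Of 14 tested ligands, partners and processing genes of orphan receptors, 1 rose and 1 fell, a share no larger than the 18.1% of all tested genes that passed, with a median log2 fold change of 0.14. Hsd3b7, an enzyme of oxysterol and bile acid metabolism, was at 48.1 and 42.9 CPM in the siRNA libraries, against 33.4 and 33.8 CPM in the control libraries (log2 fold change 0.43, SE 0.10, adjusted p = 0.00955; 0.0804 without siRNA library A). Abhd16a, a lysophosphatidylserine-forming lipase, was at 52.0 and 44.9 CPM in the siRNA libraries, against 62.2 and 69.2 CPM in the control libraries (log2 fold change -0.44, SE 0.10, adjusted p = 0.00875; 0.0924 without siRNA library B). The groups of both genes were apart.

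Genes of the G protein and cAMP lists, which act downstream of the receptors, are given list by list. Of 9 tested G protein alpha subunits 3 fell and 0 rose, against 10.0% lower and 8.05% higher among all tested genes, with a median log2 fold change of -0.04. Gnaq, the Gq subunit, was at 94.1 and 96.5 CPM in the siRNA libraries, against 133.5 and 118.1 CPM in the control libraries (log2 fold change -0.40, SE 0.08, adjusted p = 0.0062; 0.055 without control library A). Gnai1 and Gnai3, subunits that inhibit adenylyl cyclase, had log2 fold changes of -0.39 (SE 0.10) and -0.25 (SE 0.07). The calls of both were lost without siRNA library B, at an adjusted p of 0.111 for Gnai1 and 0.113 for Gnai3, and without control library A, at 0.148 and 0.139. That of Gnai3 was also lost without siRNA library A, at 0.172, with scaling by library size, at 0.0646, and with loess offsets, at 0.0891. Of 14 tested beta and gamma subunits 1 fell, a share below the 10.0% of all tested genes that were lower, with a median log2 fold change of -0.01. That gene was Gng5, at -0.28 (log2 fold change, SE 0.08, adjusted p = 0.0266). Its adjusted p was 0.0557 with scaling by library size, 0.0569 with loess offsets, 0.13 without siRNA library A, 0.102 without siRNA library B and 0.166 without control library A.

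Among 16 tested adenylyl cyclases, kinase A subunits and cAMP effectors, 1 fell and 0 rose, against 10.0% lower and 8.05% higher among all tested genes, with a median log2 fold change of 0.06. The gene that fell was Adcy5, an adenylyl cyclase, at 112.9 and 108.2 CPM in the siRNA libraries, against 155.4 and 145.3 CPM in the control libraries (log2 fold change -0.44, SE 0.08, adjusted p = 0.00211). Of 9 tested cAMP phosphodiesterases 1 rose and 1 fell, against 18.1% of all tested genes in either direction, with a median log2 fold change of 0.41. Pde3b was at 14.2 and 12.6 CPM in the siRNA libraries, against 21.8 and 20.2 CPM in the control libraries (log2 fold change -0.66, SE 0.13, adjusted p = 0.00319). The log2 fold change of Pde1c was 0.84 (SE 0.27, adjusted p = 0.0479), and each fit without 1 library lost its call, with adjusted p from 0.072 to 0.307, as did DESeq2, at 0.199.

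Of 10 tested receptor kinases and arrestins, which desensitise receptors, 2 rose and 1 fell, against 8.05% higher and 10.0% lower among all tested genes, with a median log2 fold change of 0.24. Arrdc3, an arrestin-domain protein, was at 14.5 and 14.2 CPM in the siRNA libraries, against 9.70 and 8.53 CPM in the control libraries (log2 fold change 0.65, SE 0.14, adjusted p = 0.00796). For the receptor kinase Grk6 the log2 fold change was -0.44 (SE 0.10, adjusted p = 0.00805; 0.0593 without control library B). The kinase Grk5 had one of 0.34 (SE 0.10, adjusted p = 0.0326), and each fit without 1 library lost its call, with adjusted p from 0.104 to 0.15, as did DESeq2, at 0.0811. Of 7 tested RGS genes, which speed the switching off of G proteins, 2 rose and 0 fell, against 8.05% higher among all tested genes, with a median log2 fold change of 0.43. Rgs3 was at 41.7 and 38.8 CPM in the siRNA libraries, against 26.0 and 29.1 CPM in the control libraries (log2 fold change 0.55, SE 0.10, adjusted p = 0.00315). The log2 fold change of Rgs2 was 0.44 (SE 0.14, adjusted p = 0.0484), and each fit without 1 library lost its call, with adjusted p from 0.11 to 0.246, as did DESeq2, at 0.162.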

How the data were processed

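Polyadenylated RNA of 4 libraries was analysed. Groups came from the labels, and columns of the deposited tables were matched to groups by name. The read counts per gene were deposited by the authors; HISAT2, featureCounts 1.5.0-p3 and DESeq2 1.20.0 are named in the submitters' processing notes, without roles, and no source used here gives the genome build, annotation or use of strand. The authors' deposited comparison table gives log2 fold changes and p-values, which are quoted as such. Its size-factor-scaled signal columns, made by the authors, were not used. Over all deposited tables, 8 further columns whose names start with S16 were not used either.

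Counts were filtered with filterByExpr (13018 genes kept), scaled by TMM (factors 0.975 to 1.02) and fitted with edgeR 4.0.16 in R 4.3.3 (quasi-likelihood, robust dispersion, group as the only term, biological coefficient of variation 0.111), with Benjamini-Hochberg adjustment over all tested genes and a threshold of 0.05. SEs come from the F statistic. CPM and RPKM use TMM-scaled totals and the deposited gene length. The fit was run on counts simulated from the means and dispersions of these libraries. The changes set there were larger than that of every receptor that passed except Gpr17, so smaller changes were not covered. Alternatives were other scalings, filters, tests (DESeq2 1.42.0, limma 3.58.1), thinned counts, each library left out and, chosen after seeing the data, 2 dispersion settings.

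The receptors and the lists of partners were chosen with earlier results of these data known. Genes named are every receptor that passed, the 6 most abundant of each family, and up to 4 genes of each list by adjusted p. Outside this rule, Col4a1, Dlg4, Dag1, Wnt7a and Wnt7b are named from the list of adhesion receptor ligands and partners. The 14 tested genes of that list that did not pass are not named. The remaining tested adhesion receptors are named as well. Gpr161, Gpr153, Gpr63 and the receptors under the count filter are examples of the rest. Libraries of one group differed by more than sampling noise (chi-square per gene 12.3 in each group), so none was counted as a duplicate. Protein sequences were not used here, and 1 cell type marker and 1 list of partners are not reported here.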

Additional observations from a re-analysis of the deposited data

How the results depend on the processing

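The receptors Adgrl1, Adgre5, Adgrg6 and Gpr17, passed in all 15 alternatives. The rises of Adgra2, Adgra3 and Adgrl3 each passed in 12 of 15. The count of adhesion receptors called higher, 3 as reported, was 2 with DESeq2 and lower still in each fit that left out a library. The count of adhesion receptors called lower was within 1.5 times of 3 throughout. The count of orphan receptors called higher, 1 as reported, was 3 with library size scaling, 3 with upper-quartile scaling and 2 with loess offsets, by Gpr37l1 and, in the first pair, Gpr161; the cause was not tested. Leaving out a library gave 602 to 766 tested genes higher (611 without control library A), against 1048, and 751 to 1086 lower, against 1302, with fewer libraries in each such fit. Library size scaling gave 1381 genes higher and 1009 lower, so that 57.8% of calls were higher, against 44.6% as reported. Values near 0 changed sign for Adgrg1, at 0.01 with loess offsets, and for Gpr137, at -0.01 with thinned counts, -0.09 without siRNA library A and -0.01 without control library A; the cause was not tested. Of the named genes' values under the alternatives, 483 kept direction and side of the threshold, 50 lost the call, 3 gained it and 4 changed sign. No paired analysis was possible because the numbers in the column names do not match the replicate numbers of the labels and the groups share only 1 of them. With 2 libraries per group, small differences of receptors with few counts could not be detected.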
